A study of Mus musculus with 15 samples.

Results

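The 10 genes described here, Pecam1, Cdh5, Kdr, Flt1, Tek, Tie1, Emcn, Erg, Cldn5 and Esam, are markers of endothelial cells, the cells that line blood vessels. They were chosen by name, and each of the 10 was found among the 23420 genes of both count tables of the series. Their RNA was followed in 15 RNA sequencing libraries of whole lungs from wild-type CD1 mouse embryos, with 3 libraries in each of 5 groups. In the high pressure and low pressure groups, lungs explanted at E12.5 (stages are named by the embryonic day) were cultured for 48 h at high or low transmural pressure, that is, with a larger or smaller pressure drop between airway lumen and outside. In the E12.5, E13.5 and E14.5 groups, lungs were taken fresh from the embryo on those days. A high pressure, E13.5 or E14.5 library pooled 3 lungs, and a low pressure or E12.5 library pooled 6. CD1 is an outbred stock, no group carried a transgene, and an explant is cut off from the circulation of the embryo.

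Endothelial cells form the vessel network of the embryonic lung within the mesenchyme that surrounds the branching airways. Their growth depends on vascular endothelial growth factor (VEGF-A), made largely by the epithelium and neighbouring tissue, which acts on the receptors encoded by Kdr and Flt1, and on angiopoietins, which act on the receptor encoded by Tek. Pecam1, Cdh5, Cldn5 and Esam encode adhesion proteins of the junctions between endothelial cells, Emcn encodes the surface sialomucin endomucin, Tie1 encodes a partner of the Tek receptor, and Erg encodes a transcription factor that maintains endothelial gene expression.

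Libraries of cultured lungs held 31843739 to 44341263 counts and those of fresh lungs 18837343 to 21955244, and each of the 10 genes had at least 34 counts in every library. High pressure libraries were deeper than low pressure libraries, with 40167255 to 44341263 against 31843739 to 38288861 counts. Low pressure replicate 3 stood apart with counts for 14637 genes, where the other 14 libraries had counts for 16465 to 16729. Replicate 1 of each fresh stage stood apart as well: ribosomal protein genes took 3.41% to 4.13% of its counts, against 1.69% to 2.15% in replicates 2 and 3. These genes took 2.92% to 3.2% of the counts at high pressure and 1.86% to 2.1% at low pressure. Whether the pools of 1 group are separate litters or culture runs is not stated in the labels, so p-values measure the spread between these pools, which may be technical. The number of lungs per pool differed between high and low pressure and between E14.5 and E12.5, so pool size and group cannot be told apart in those comparisons. The 7 lung epithelial markers summed to 300 to 1465 CPM (counts scaled to a common library size) across the 15 libraries, and Nkx2-1, the transcription factor that marks lung epithelium, had 61.9 CPM or more in each.

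Erg belongs to the ETS family, whose members bind DNA at a GGAA core, and promoters of endothelial genes are known for such sites. The promoter set used here, RefSeq on GRCm38.p6, held an entry for 7 of the 10 genes and a total of 9 start sites. The 150 bases before the start are shown for both VEGF receptor genes, for the angiopoietin receptor gene and for a junction gene with no match. These 4 genes were picked with the results that follow known, and a relation between matches and those results was not tested. Capitals mark GGAA, or TTCC where the match lies on the other strand, and each window is written 5′ to 3′ on the strand of the gene.
Kdr (chr5:75978456-75978605, minus strand): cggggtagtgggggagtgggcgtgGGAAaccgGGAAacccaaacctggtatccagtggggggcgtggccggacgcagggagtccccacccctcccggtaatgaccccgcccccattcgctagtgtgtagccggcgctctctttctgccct
Flt1 (chr5:147726012-147726161, minus strand): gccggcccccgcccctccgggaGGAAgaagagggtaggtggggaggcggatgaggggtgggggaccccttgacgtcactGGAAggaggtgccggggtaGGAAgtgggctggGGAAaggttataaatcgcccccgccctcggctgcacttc
Tek (chr4:94739139-94739288, plus strand): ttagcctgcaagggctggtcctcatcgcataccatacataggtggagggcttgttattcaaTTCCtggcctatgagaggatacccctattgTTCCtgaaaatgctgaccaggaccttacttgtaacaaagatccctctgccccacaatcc
Cldn5 (chr16:18776697-18776846, plus strand): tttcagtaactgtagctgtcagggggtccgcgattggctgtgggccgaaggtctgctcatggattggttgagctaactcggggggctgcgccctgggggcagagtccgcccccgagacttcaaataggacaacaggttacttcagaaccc

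Flt1 had 4 matches to GGAA in this window, Kdr and Tek 2 each, and Cldn5 had 0. The windows of Erg, not shown, had 0, 3 and 2. Over the 9 start sites, 7 windows held GGAA on either strand. The same letters occur in 80.8% of 32851 mouse promoter windows of 150 bases, with a mean of 1.74 matches, so the share among these genes is near the background. The longer AGGAAG, which contains GGAA, was found in 3 of the 9 windows and in 19.7% of all windows, again on either strand, and Flt1 held 2 of these matches. A match is a description of letters and does not show a bound site.

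Levels are given as CPM on a common scaling of the 15 libraries, and to compare genes they were divided by the exon length of the gene (GENCODE M21, GRCm38), giving CPM per kb. At E14.5, the group with the highest mean of each gene, the junction cadherin gene Cdh5 (chromosome 8, 104101625 to 104144511, plus strand) stood highest at 66.6 ± 5.78 CPM per kb (SD, n = 3). Cldn5 (chromosome 16, 18776847 to 18778262, plus strand) followed with 37.7 ± 18.1 CPM per kb and Tie1 (chromosome 4, 118471191 to 118490061, minus strand) with 24.3 ± 7.09 CPM per kb. Tek (chromosome 4, 94739289 to 94874976, plus strand), Kdr (chromosome 5, 75932827 to 75978458, minus strand), Esam (chromosome 9, 37528078 to 37538319, plus strand) and Pecam1 (chromosome 11, 106654217 to 106750628, minus strand) lay between 15.8 and 18.7 CPM per kb. The lowest levels per length were those of Emcn (chromosome 3, 137341067 to 137432185, plus strand) at 8.15 ± 2.22, Erg (chromosome 16, 95359169 to 95586593, minus strand) at 3.8 ± 0.772 and Flt1 (chromosome 5, 147561604 to 147726011, minus strand) at 2.44 ± 0.313 CPM per kb. No exon of these genes overlaps an exon of another gene in that annotation, so the missing statement on strand does not bear on their counts through annotated neighbours.

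**Figure D1:**
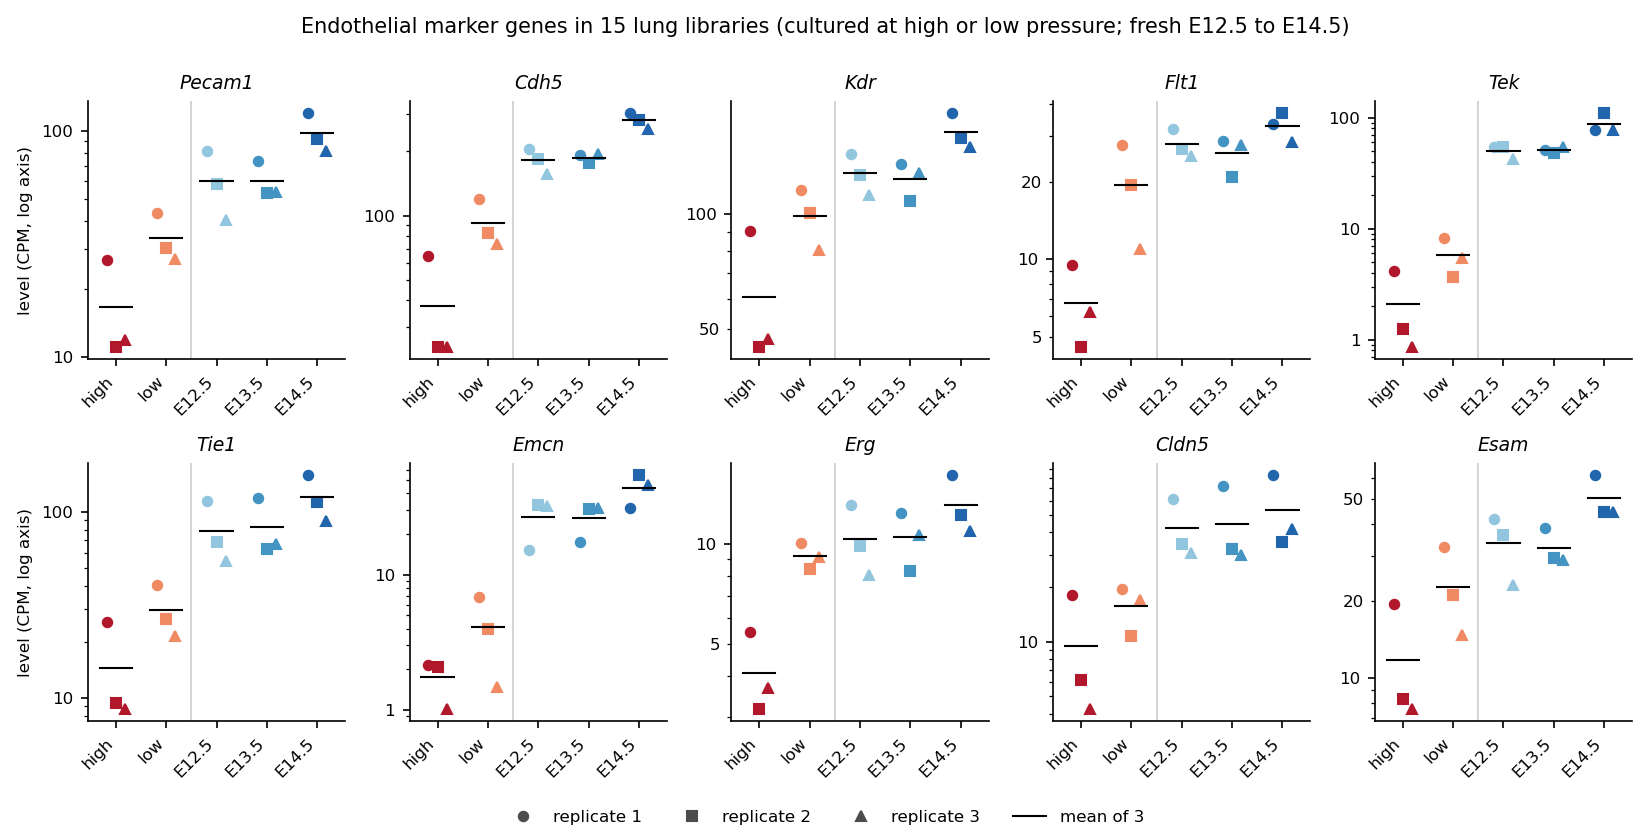
Level of each of the 10 endothelial marker genes (CPM, log axis) in every library, by group, with the points of replicates 1, 2 and 3 as circle, square and triangle and a line at the mean of 3. High pressure had the lowest and E14.5 the highest mean for each of the 10 genes, and E12.5 and E13.5 overlapped throughout.

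The order of the 5 group means was the same for all 10 genes up to the place of 2 stages. High pressure was lowest, low pressure came next, E12.5 and E13.5 followed in either order, and E14.5 was highest. Neighbours in that order often overlapped. The libraries of E12.5 and E13.5 overlapped for all 10 genes, those of high and low pressure for 6, those of low pressure and the lower of the 2 early stages for 4 (Kdr, Flt1, Erg and Esam), and those of E14.5 and the higher of the 2 early stages for 5. The share of all genes with the same order of means, or with overlap at these steps between the fresh stages, is not given here. Summed over the 10 genes, the levels were 266, 115 and 115 CPM in high pressure replicates 1 to 3 and 424, 308 and 261 CPM at low pressure. In fresh lungs the sums were 762, 633 and 526 CPM at E12.5 and 737, 570 and 627 CPM at E13.5. They reached 1067, 937 and 825 CPM at E14.5. These are whole lungs, so fewer endothelial cells and less RNA per cell cannot be told apart.

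The first comparison asked how the genes differed between lungs held at high and at low pressure. Flt1, Cdh5 and Erg fell at high pressure and no marker rose, at an adjusted p below 0.05 in edgeR's quasi-likelihood test (Benjamini-Hochberg over 14937 genes, the criterion used throughout). All 10 fold changes were negative, between -1.52 and -0.70 on the log2 scale with a median of -1.09, where the median over all genes tested was 0.014. Of all genes tested, 12.2% were called lower at high pressure, against 3 of these 10.

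Among the VEGF receptors, Flt1, which binds VEGF-A with high affinity and is also made as a soluble decoy form, had 9.52, 4.55 and 6.26 CPM at high pressure, against 27.9, 19.5 and 11 CPM at low pressure. Each high pressure library was below each low pressure library, though by little for low pressure replicate 3. The log2 fold change was -1.52 (SE 0.37, adjusted p = 0.0182). Kdr, the main signalling receptor for VEGF-A, had 90.6, 44.9 and 47.3 CPM at high pressure, against 116, 101 and 80.5 CPM at low pressure. High pressure replicate 1 lay inside the low pressure range, and the log2 fold change of -0.70 (SE 0.27) did not pass (adjusted p = 0.088).

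Of the junction and surface genes, Cdh5, which encodes VE-cadherin, had 64.4, 24.2 and 24.1 CPM at high pressure, against 120, 82.6 and 73.7 CPM at low pressure. The groups did not overlap, and high pressure replicate 1 was far above its 2 partners. The log2 fold change was -1.29 (SE 0.38, adjusted p = 0.039). Pecam1 had 26.7, 11 and 11.8 CPM at high pressure, against 43.1, 30.2 and 27.1 CPM at low pressure, again without overlap, and its fold change of -1.02 (SE 0.34) just missed the threshold (adjusted p = 0.0607). Esam had 19.5, 8.36 and 7.59 CPM at high pressure, against 32.5, 21.1 and 14.7 CPM at low pressure. The first of the high pressure values lay inside the low pressure range (log2 fold change -0.94, adjusted p = 0.121). Cldn5, the tight junction claudin, had 18.2, 6.14 and 4.25 CPM at high pressure, against 19.5, 10.7 and 17 CPM at low pressure, and had the least certain difference of the 10 (-0.71, SE 0.49, adjusted p = 0.321). Emcn had 2.14, 2.06 and 1.01 CPM at high pressure, against 6.89, 4 and 1.47 CPM at low pressure. The overlap came from replicate 3 at low pressure, in which fewer genes had counts (log2 fold change -1.24, SE 0.55, adjusted p = 0.13).

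The angiopoietin receptor gene Tek had 4.13, 1.25 and 0.855 CPM at high pressure, against 8.19, 3.66 and 5.4 CPM at low pressure. Its fold change was of the size of that of Flt1 but less precise, at -1.46 (SE 0.58, adjusted p = 0.0977). Its partner Tie1 had 25.4, 9.38 and 8.65 CPM at high pressure, against 40.5, 26.3 and 21.5 CPM at low pressure (-1.02, SE 0.42, adjusted p = 0.109). For both genes it was again high pressure replicate 1 that reached into the low pressure range. The transcription factor gene Erg had 5.42, 3.17 and 3.67 CPM at high pressure, against 10.1, 8.42 and 9.13 CPM at low pressure. All 3 high pressure values were below all low pressure values, and the difference was the most precise of the 10 at -1.17 (SE 0.24, adjusted p = 0.0101).

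The libraries of the 2 pressures did not overlap for 4 genes (Pecam1, Cdh5, Flt1 and Erg), all lower at high pressure, where the same held for 22.0% of all genes tested. High pressure replicate 1 was the highest library of its group for all 10 genes, at 1.40 to 3.93 times the mean of replicates 2 and 3 (median 2.40). Replicate 1 was also the highest at low pressure for all 10, at 1.15 to 2.52 times (median 1.62). Without high pressure replicate 1, 9 of the 10 genes were called lower (all but Emcn) and 7.19% of all genes. Without high pressure replicate 2, high pressure replicate 3 or low pressure replicate 1, Erg alone was called, with 5.40%, 6.22% and 8.73% of all genes called lower, so that 1 of 10 was near the share of all genes. Without low pressure replicate 3 the called genes were Flt1, Emcn and Erg, with 18.9% of all genes called lower. With both libraries numbered 1 left out, a check added after the data were seen, 7 were called lower (all but Flt1, Emcn and Cldn5), with 3.04% of all genes. Erg was called, and all 10 fold changes were negative, in each of these fits.

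**Figure D2:**
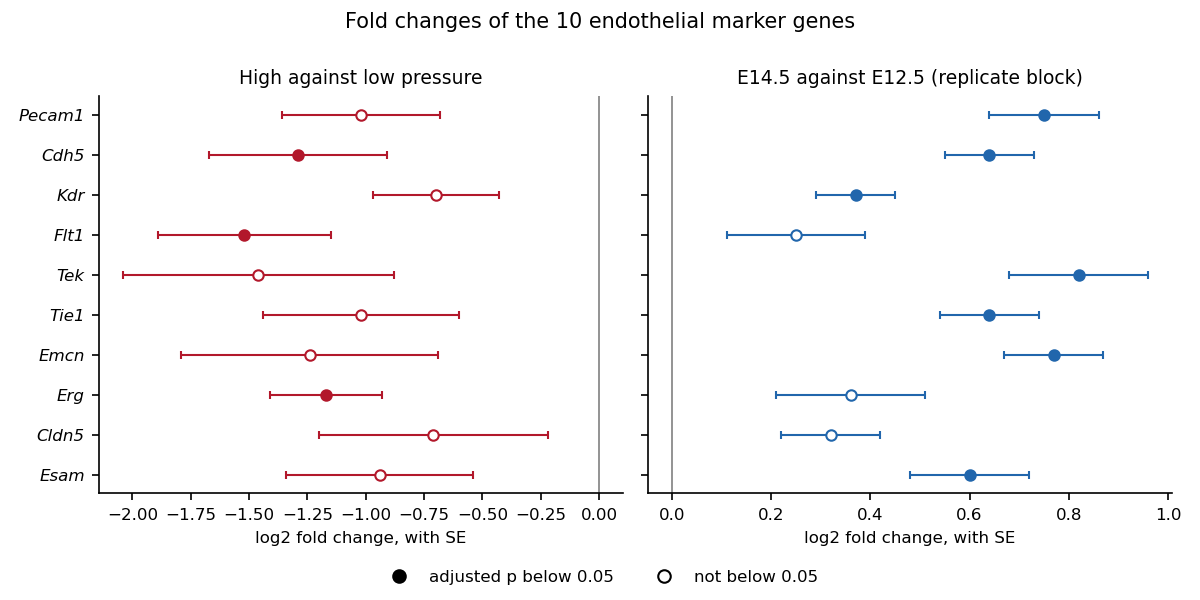
Log2 fold change of each endothelial marker gene with its SE (bars), high against low pressure on the left and E14.5 against E12.5 with the replicate block on the right. Filled points had an adjusted p below 0.05: 3 genes, all negative, on the left and 7 genes, all positive, on the right.

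Markers of other tissues moved with pressure too. Of all genes tested, 14.0% rose at high pressure. All 7 lung epithelial genes rose, with a median log2 fold change of 1.18, and their sum was 1438, 1465 and 1367 CPM at high pressure, against 612, 527 and 549 CPM at low pressure. Of 8 mesenchymal genes, 3 rose and 3 fell, and the sum was 9089 to 11519 CPM at high pressure and 7266 to 8211 CPM at low pressure. Most of that sum was the collagen genes Col1a1, Col1a2 and Col3a1. Their means were 2516, 3190 and 3976 CPM at high pressure, against 1098, 1641 and 3482 CPM at low pressure. Of the remaining genes Tbx4 rose, Pdgfra, Tbx5 and Foxf1 fell and Wnt2 was not called, so the sum does not measure mesenchyme as a whole. Pericytes are the cells wrapped around capillaries. Of 10 pericyte genes tested (11 listed), 0 rose and 2 fell, namely Abcc9 (-1.20) and Pdgfrb (-0.38), a receptor gene used as a marker of these cells. The list summed to 642 to 808 CPM at high pressure and 873 to 956 CPM at low pressure. Most of that sum came from Notch3 and Pdgfrb. Their means were 347 and 189 CPM at high pressure, against 425 and 247 CPM at low pressure. Of 12 macrophage and leukocyte genes, 2 rose and 2 fell, with sums of 158 to 233 CPM at high pressure and 174 to 187 CPM at low pressure. Of 9 red cell genes tested (14 listed), 0 rose and 2 fell, with sums of 380 to 524 and 255 to 614 CPM at high and low pressure. None of the 4 platelet genes tested and none of the 7 heart muscle genes tested was called, and their sums stayed between 4.09 and 13.6 CPM and between 4.68 and 28.5 CPM over the 6 libraries. The adult alpha globin genes Hba-a1 and Hba-a2 had 0 counts in all 15 libraries, which does not show that their RNA was absent. The platelet gene Gp6 had 0 counts in all 6 cultured libraries, and the pericyte gene Higd1b and the platelet gene Gp9 had 0 counts at low pressure. The part that a shift between tissues has in the endothelial values was not tested.

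The second comparison followed the genes through 2 days of normal development. The mean of each endothelial marker was higher at E14.5 than at E12.5 and E13.5, by log2 fold changes of 0.24 to 0.83 against E12.5, while those of E13.5 against E12.5 lay between -0.13 and 0.08. In the fit of the 9 fresh libraries without a block, no gene of the genome was called in any stage comparison (0% of 14242). At an unadjusted p below 0.05 there were 123 genes for E13.5 against E12.5, 977 for E14.5 against E13.5 and 1328 for E14.5 against E12.5, and among the markers 0, 5 and 3. Fresh libraries of the same replicate number deviated together, so the fit with the replicate number as a block is given beside it. Some fresh libraries with different numbers deviated together as well, with correlations of up to 0.625. With the block, 7 of the 10 genes rose at E14.5 against E12.5 and 0 fell, where 7.33% of all genes tested rose. DESeq2 without a block called 2 of the 10 higher in this comparison (Cdh5 and Tek, with 1.87% of 18808 genes), the same 2 at E14.5 against E13.5 (1.25%) and 0 at E13.5 against E12.5.

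Tek showed the largest change, with 77.1, 110 and 77.5 CPM at E14.5, against 54, 54 and 42.5 CPM at E12.5. All E14.5 libraries were above all E12.5 libraries, and the log2 fold change was 0.82 with the block (SE 0.14, adjusted p = 0.00829) and 0.83 without it (adjusted p = 0.144). Tie1 had 157, 112 and 88.9 CPM at E14.5, against 114, 68.9 and 54.1 CPM at E12.5. Its stages overlapped because replicate 1 was high in both, and it rose by 0.64 with the block (SE 0.10, adjusted p = 0.00391), against an adjusted p of 0.823 without it.

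Among junction and surface genes, Cdh5 had 303, 282 and 254 CPM at E14.5, against 205, 185 and 157 CPM at E12.5. The stages did not overlap, and the change was 0.64 with the block (SE 0.09, adjusted p = 0.00197) and 0.63 without it (adjusted p = 0.179). Pecam1 had 120, 92.3 and 81.8 CPM at E14.5, against 81.8, 58.2 and 40.4 CPM at E12.5, and rose by 0.75 with the block (adjusted p = 0.00273, against 0.476 without it). Esam had 61.8, 44.4 and 44.6 CPM at E14.5, against 41.8, 36.2 and 23.1 CPM at E12.5, and rose by 0.60 with the block (adjusted p = 0.0106, against 0.553 without it). For Pecam1 and Esam replicate 1 was the highest library of each stage, and for Cdh5 of E12.5 and E14.5. Emcn did the opposite: replicate 1 was its lowest fresh library at each stage, with 31, 54.7 and 46.5 CPM at E14.5, against 15.3, 32.7 and 32.3 CPM at E12.5, and it rose by 0.77 with the block (SE 0.10, adjusted p = 0.00212, against 0.604 without it). Cldn5 had 82.8, 35.4 and 42 CPM at E14.5, against 61.3, 34.4 and 31 CPM at E12.5, and its change of 0.32 with the block was not called (adjusted p = 0.059).

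Of the VEGF receptor genes, Kdr had 184, 158 and 150 CPM at E14.5, against 144, 127 and 112 CPM at E12.5, without overlap, and rose by 0.37 with the block (SE 0.08, adjusted p = 0.0165, against 0.544 without it). Flt1 had 33.5, 37 and 28.5 CPM at E14.5, against 32.2, 26.9 and 25.2 CPM at E12.5, with overlap and a change of 0.25 that was not called (SE 0.14, adjusted p = 0.263). The difference between the 2 receptors was not tested. Erg had 16.2, 12.3 and 11 CPM at E14.5, against 13.2, 9.89 and 8.09 CPM at E12.5, and its change of 0.36 was not called either (SE 0.15, adjusted p = 0.134).

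The step between E13.5 and E12.5 was small for every marker. The log2 fold changes with the block lay between -0.13 (Flt1, with 28.7, 20.8 and 27.8 CPM at E13.5) and 0.07 (Tie1, with 118, 62.7 and 67 CPM at E13.5), none was called, and 0.00702% of all genes were. At E14.5 against E13.5, 7 of the 10 genes (Pecam1, Cdh5, Kdr, Tek, Tie1, Emcn and Esam) rose with the block, with changes of 0.42 (Kdr) to 0.78 (Tek), and 4.15% of all genes rose. This comparison shares its E14.5 libraries with that against E12.5. The second day minus the first day gave a positive difference for all 10 genes, 0.26 to 0.77 with the block, but none passed that test, with adjusted p-values of 0.339 to 0.815. Of all genes, 0.0211% passed it with the block and 0% without.

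Within replicate numbers, E14.5 was above E12.5 in 30 of the 30 pairs of a gene and a number, and above E13.5 in 30 of 30, while E13.5 was above E12.5 in 11 of 30. The 30 pairs rest on 3 libraries per stage and on genes that vary together, so they are not independent. How many of all genes did the same was not counted. For 5 genes (Pecam1, Cdh5, Kdr, Tek and Esam) all E14.5 libraries were above all E12.5 libraries, as for 8.52% of all genes tested. With the libraries numbered 1 left out of each stage and no block, 5 of the 10 were called higher at E14.5 against E12.5, with 5.32% of all genes, and 1 (Emcn) at E14.5 against E13.5, with 0.338%. With the block, leaving out 1 library at a time gave 5 to 7 called markers for E14.5 against E12.5, while 1.93% to 8.56% of all genes rose. For E14.5 against E13.5 it gave 1 (Emcn) without E13.5 replicate 2, where 0.421% of all genes rose, and 4 (Pecam1, Cdh5, Tie1 and Emcn) without E13.5 replicate 1, where 0.977% rose. The other left-out libraries gave 6 or 7 there, with 1.72% to 6.24% of all genes.

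Heart muscle genes had larger fold changes with stage than the endothelial genes. The 8 listed summed to 700, 1415 and 328 CPM at E14.5, against 39.2, 17.5 and 9.01 CPM at E12.5, and with the block 6 of 8 rose (median log2 fold change 4.96). Nppa, which encodes atrial natriuretic peptide, had 54.8, 124 and 24.7 CPM at E14.5, against 0.0948, 0 and 0 CPM at E12.5. Among the E14.5 libraries the heart muscle sum was highest in replicate 2, as were Tek, Emcn and Flt1, while the other 7 markers and the marker sum were highest in replicate 1. With the block, red cell genes summed to 518 to 1373 CPM at E14.5 and 2936 to 3646 CPM at E12.5, and 0 of 10 tested rose and 4 fell, where 3.63% of all genes fell. Most of that sum was the embryonic globin gene Hbb-y, with means of 897 CPM at E14.5 and 2422 CPM at E12.5. Of 14 red cell genes listed, 12 were in the count tables and 2 of those had 0 counts throughout, so the sum does not measure red cells as a whole. With the block, pericyte genes rose in 4 and fell in 1 of 10 cases, with sums of 452 to 616 and 431 to 610 CPM at E14.5 and E12.5. Notch3 and Pdgfrb made up most of the pericyte sums here too. Mesenchymal genes rose in 3 and fell in 1 of 8, with sums of 5812 to 6690 and 4380 to 4798 CPM, again mostly from the collagen genes. Epithelial (7 tested), leukocyte (11) and platelet (6) genes gave 0 calls, with sums of 357 to 857, 129 to 146 and 9.71 to 11.5 CPM at E14.5, against 300 to 622, 73.2 to 145 and 8.25 to 32.8 CPM at E12.5. The part of heart or other tissue in the endothelial values at E14.5 was not tested.

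The third comparison set cultured lungs against fresh lungs, both at the stage of explantation (E12.5) and at the stage of the same age in days (E14.5). All 15 libraries entered 1 fit on raw counts. Cultured and fresh lungs stand in separate count tables, so culture and table cannot be told apart. Pool size differed as well between high pressure and E12.5 and between low pressure and E14.5. In lungs kept at low pressure, 4 of the 10 genes were lower than at E12.5 (Tek, Emcn, Tie1 and Cdh5), where 14.9% of all 14940 genes tested were lower, and 5 lay wholly below the E12.5 libraries (these and Cldn5), as for 22.2% of all genes. In lungs kept at high pressure all 10 were lower than at E12.5, where 21.3% of all genes were. Against E14.5, 8 were lower at low pressure (all but Flt1 and Erg), where 16.1% of all genes were, and all 10 at high pressure, where 21.3% of all genes were. The 2 cultured groups share each fresh group in these comparisons.

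Tek differed most: its 4.13, 1.25 and 0.855 CPM at high pressure and 8.19, 3.66 and 5.4 CPM at low pressure stood against 54, 54 and 42.5 CPM at E12.5. The log2 fold change against E12.5 was -4.59 at high pressure (SE 0.50, adjusted p = 1.49e-05) and -3.13 at low pressure (SE 0.46, adjusted p = 0.000248). Emcn came next, at -3.94 for high pressure (SE 0.53, adjusted p = 8.23e-05) and -2.70 for low pressure (SE 0.50, adjusted p = 0.00123). The 2.14, 2.06 and 1.01 CPM of Emcn at high pressure and its 6.89, 4 and 1.47 CPM at low pressure were all below the 15.3, 32.7 and 32.3 CPM at E12.5. Tie1, the partner of Tek, gave -2.45 at high pressure (adjusted p = 0.000866) and -1.42 at low pressure (adjusted p = 0.0243).

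The junction gene Cdh5 fell by 2.28 at high pressure (adjusted p = 0.000148) and fell by 0.98 at low pressure (adjusted p = 0.0308), both against E12.5. Pecam1 fell by 1.87 at high pressure (adjusted p = 0.000971), and its -0.85 at low pressure was not called (adjusted p = 0.0746). Cldn5 fell by 2.15 at high pressure (adjusted p = 0.00689), and its -1.43 at low pressure was not called (adjusted p = 0.0566), although each low pressure library was below each E12.5 library. Esam fell by 1.51 at high pressure (adjusted p = 0.00584) and gave -0.57 at low pressure (adjusted p = 0.26).

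Erg, Kdr and Flt1 gave the smallest fold changes against E12.5 in lungs kept at low pressure. Kdr gave -0.36 there (SE 0.24, adjusted p = 0.264), Flt1 -0.53 (SE 0.31, adjusted p = 0.21) and Erg -0.18 (SE 0.25, adjusted p = 0.631), and the libraries of each gene overlapped. At high pressure the same genes fell by 1.07 (Kdr), 2.05 (Flt1) and 1.35 (Erg) against E12.5, with adjusted p-values of 0.00319, 0.00027 and 0.0011. Against E14.5, Flt1 and Erg at low pressure gave -0.76 (adjusted p = 0.0761) and -0.52 (adjusted p = 0.136), although the libraries did not overlap.

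The number of genes called at low pressure depended on single libraries. Against E12.5, 2 genes (Tek and Emcn) were called without low pressure replicate 2, low pressure replicate 3 or E12.5 replicate 1, and 11.1%, 12.1% and 14.9% of all genes were lower in these fits, so that 2 of 10 was near the share of all genes. Against E14.5, 5 (Pecam1, Cdh5, Tek, Tie1 and Emcn) were called without low pressure replicate 2, low pressure replicate 3 or E14.5 replicate 1, with 11.9%, 13.1% and 16.6% of all genes lower. At high pressure 10 of 10 were called against either stage whichever library was left out. Of all genes, 22.3% were higher than E12.5 at high pressure and 17.6% at low pressure. Red cell genes summed to 380 to 524 CPM at high pressure and 255 to 614 CPM at low pressure, against 2936 to 3646 CPM at E12.5, and 9 of 10 fell in both cultured groups. Most of these sums was again Hbb-y, with means of 401, 346 and 2422 CPM at high pressure, low pressure and E12.5. Leukocyte genes rose in 8 of 12 cases and fell in 1, with sums of 158 to 233 CPM at high and 174 to 187 CPM at low pressure, against 73.2 to 145 CPM at E12.5. Pericyte genes rose in 5 (high pressure) and 7 (low pressure) of 10 cases and fell in 0, with sums of 642 to 808 and 873 to 956 CPM, against 431 to 610 CPM at E12.5. These sums again came mostly from Notch3 and Pdgfrb. Epithelial genes rose in 7 of 7 cases at high and in 1 of 7 at low pressure, and mesenchymal genes rose in 4 and fell in 2 of 8 at high and rose in 3 and fell in 1 at low pressure. Of 6 platelet genes 2 fell in each cultured group against E12.5, and of 8 heart muscle genes 0 were called. Against E14.5, by contrast, all 8 heart muscle genes were called lower in both cultured groups. Their median log2 fold changes were -5.13 at high and -5.91 at low pressure. The other lists are not given against E14.5 here. The part of these tissues in the endothelial differences was not tested.

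**Figure D3:**
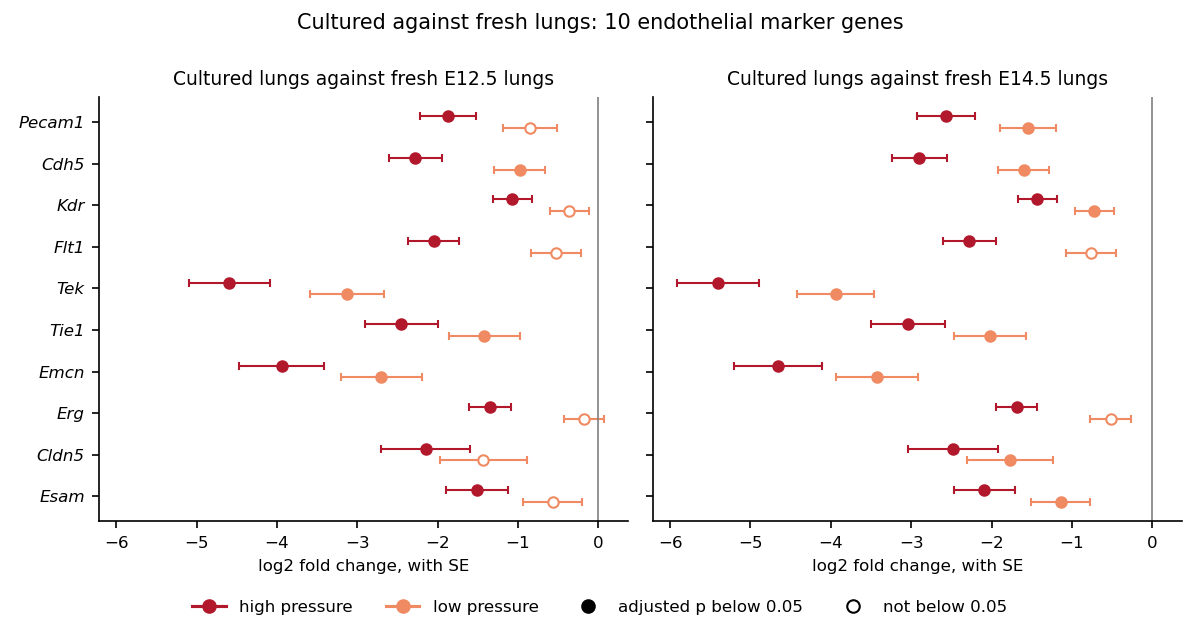
Log2 fold change with its SE (bars) of each endothelial marker gene in lungs cultured at high pressure (red) and low pressure (orange), against fresh E12.5 lungs on the left and fresh E14.5 lungs on the right. All high pressure points are filled (adjusted p below 0.05), and Tek and Emcn lie farthest from 0 in each panel.

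Ratios between genes of 1 library do not depend on its depth and differed between cultured and fresh lungs for some pairs of markers. Tek over Kdr, as log2 of the CPM ratio, was -4.46, -5.17 and -5.79 at high pressure and -3.82, -4.79 and -3.90 at low pressure. In fresh lungs it was -1.41, -1.23 and -1.40 at E12.5, and its mean was -1.27 ± 0.13 in E13.5 and -0.91 ± 0.37 in E14.5 lungs (SD, n = 3). The cultured and fresh libraries did not overlap in this ratio. Tek over Tie1 was -2.96 ± 0.36 at high pressure and -2.38 ± 0.43 at low pressure, against -0.59 ± 0.42 at E12.5 (SD, n = 3), again without overlap.

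Flt1 over Kdr was -3.25, -3.30 and -2.92 at high pressure, against -2.05, -2.38 and -2.87 at low pressure, and the fresh stages had means of -2.18, -2.27 and -2.31. The 2 pressures did not overlap, though low pressure replicate 3 came close to the high pressure libraries. Emcn over Kdr was -5.13 ± 0.60 at high and -4.84 ± 0.87 at low pressure, against -2.33 ± 0.78 at E12.5 (SD, n = 3), with no overlap between cultured and fresh libraries. Cldn5 over Cdh5 was -2.10 ± 0.36 at high pressure, -2.56 ± 0.42 at low pressure and -2.17 ± 0.37 at E12.5 (SD, n = 3), and its groups overlapped. These ratios were chosen after the values were seen and are descriptions. With 3 libraries against 3, the smallest exact permutation p is 0.1.

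**Figure D4:**
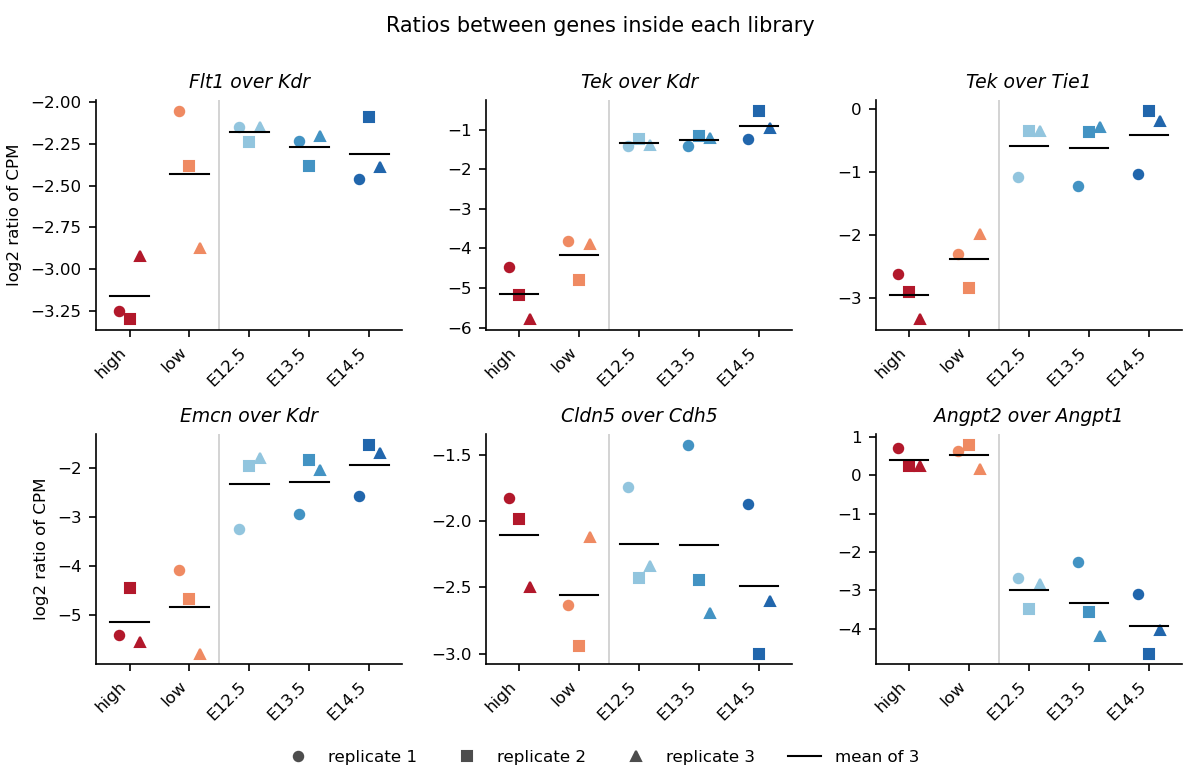
Log2 ratio of the CPM of 2 genes inside each library, by group, with replicates 1, 2 and 3 as circle, square and triangle and a line at the mean of 3. Tek over Kdr, Tek over Tie1, Emcn over Kdr and Angpt2 over Angpt1 separate cultured from fresh libraries, and Cldn5 over Cdh5 does not.

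The markers varied together more closely in cultured than in fresh lungs. Over the 45 pairs of genes, Pearson's r of log2 CPM was 0.558 to 0.997 in the 6 cultured libraries (median 0.916) and -0.539 to 0.982 in the 9 fresh libraries (median 0.775). The libraries of a set share their groups, scaling and batches, so these values describe the set and carry no test. Emcn was the exception in fresh lungs, with r of 0.077 against the mean of the 10 genes there, where the other 9 had 0.731 to 0.987. Over all 15 libraries, of 13411 other genes averaging 1 CPM or more, the 6 whose pattern was most like the mean of the markers were Rasip1 (r 0.988), Thsd1 (0.984), Sox17 (0.979), Arap3 (0.977), She (0.974) and Mfng (0.972). Each of the 10 genes had r of 0.898 (Emcn) to 0.995 (Cdh5) with that mean, to which it contributes, and 89 of the other genes lay at or above 0.898. Rasip1, closest to the markers, had 15.4, 5.44 and 5.56 CPM at high pressure and 25.7, 17.6 and 13.7 CPM at low pressure, against 55.6, 35.4 and 36.6 CPM at E14.5.

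The ligands of these receptors did not all move with the receptors in culture. Vegfa, which encodes VEGF-A, had 827, 852 and 1202 CPM at high pressure, against 1681, 1711 and 1901 CPM at low pressure, without overlap, which is -0.87 in log2 terms (SE 0.15, adjusted p = 0.00465). Both cultured groups were above the 71.2, 147 and 139 CPM of E12.5, with Vegfa higher by a log2 fold change of 3.01 at high pressure (adjusted p = 9.07e-05) and 3.89 at low pressure (adjusted p = 2.73e-05). Between stages Vegfa did not pass, with 74.3, 172 and 160 CPM at E14.5 and a blocked change of 0.18 against E12.5 (adjusted p = 0.164). Replicate 1 was its lowest library at each stage.

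Pgf, Angpt1, Angpt2 and Dll4 are named after their values were seen. Pgf, which encodes placental growth factor, a ligand of the Flt1 receptor, had 64.3, 46.9 and 46.2 CPM at high pressure and 63.7, 54.6 and 79.4 CPM at low pressure, against 10.7, 9.07 and 12.1 CPM at E12.5. Both cultured groups were called higher than E12.5 (2.31 and 2.63), and the pressures did not differ past the threshold (adjusted p = 0.208). Angpt1, the activating ligand of the Tek receptor, was lower in cultured lungs, at 18.2 ± 2.56 CPM for high pressure and 23.4 ± 3.65 CPM for low pressure, against 68.3 ± 19.7 CPM at E12.5 (-1.91, adjusted p = 0.00258, and -1.54, adjusted p = 0.0118). Angpt2, a ligand of the same receptor that acts largely against Angpt1 in vessels, was higher in cultured lungs, at 24.8 ± 8.54 and 33.8 ± 3.51 CPM for high and low pressure, against 8.45 ± 2.07 CPM at E12.5 (1.55, adjusted p = 0.000212, and 2.0, adjusted p = 5.44e-05). The log2 ratio of Angpt2 over Angpt1 was 0.40 ± 0.27 at high pressure and 0.53 ± 0.33 at low pressure, against -3.00 ± 0.42, -3.34 ± 0.98 and -3.93 ± 0.78 in E12.5, E13.5 and E14.5 lungs (SD, n = 3), and the cultured and fresh libraries did not overlap. Dll4, a Notch ligand of arterial and sprouting endothelium, had 38.6 ± 25.4 CPM at high pressure and 73.6 ± 12.8 CPM at low pressure, against 22 ± 1.51 CPM at E12.5. It was called higher than E12.5 at low pressure (1.74, adjusted p = 0.00144) and not at high pressure (0.81, adjusted p = 0.0571).

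**Figure D5:**
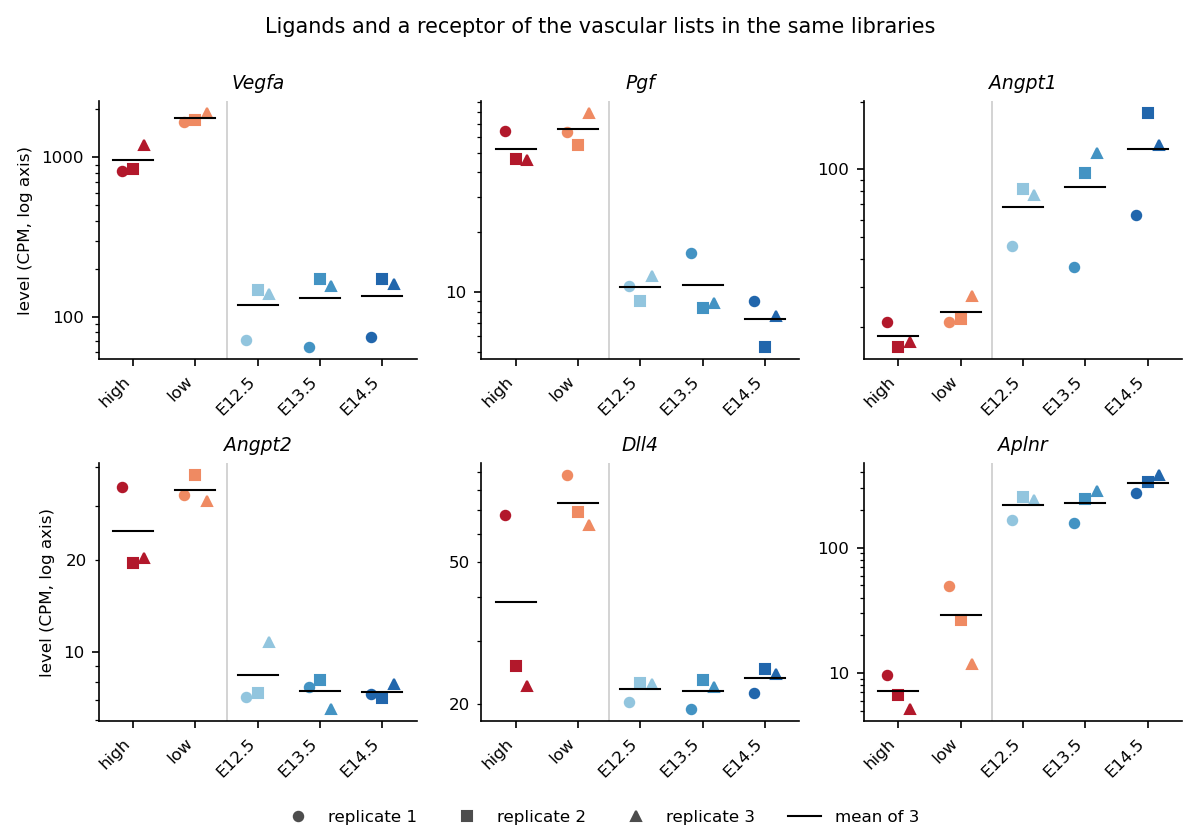
Level (CPM, log axis) of Vegfa, Pgf, Angpt1, Angpt2, Dll4 and the apelin receptor gene Aplnr in every library, by group, with replicates 1, 2 and 3 as circle, square and triangle and a line at the mean of 3. Vegfa, Pgf and Angpt2 are higher and Angpt1 and Aplnr lower in all cultured than in all fresh libraries.

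Other genes of the vessel wall were counted in lists. Of 25 further endothelial genes tested (27 listed), 0 rose and 6 fell at high against low pressure, where 12.2% of all genes fell, with a median log2 fold change of -0.72. Of the 25 fold changes 19 were negative and 6 positive, and the 6, none of them called, were those of Vwf (0.68), Esm1 (0.66), Tmem204 (0.60), Eng (0.36), Egfl7 (0.34) and Plvap (0.13), named after their values were seen. Calcrl, the receptor gene for adrenomedullin, fell by 1.40 (SE 0.17, adjusted p = 0.0013), Myct1 fell by 1.53 (adjusted p = 0.0163) and Eltd1, an adhesion receptor gene, fell by 1.76 (adjusted p = 0.0286). At E14.5 against E12.5 with the block, 15 of the 25 rose and 0 fell (median 0.44), among them the phosphatase gene Ptprb (0.88, adjusted p = 0.00149), Clec14a (1.06, adjusted p = 0.003) and Vwf, which encodes von Willebrand factor (0.96, adjusted p = 0.0351). Of these, Ptprb and Clec14a also fell at high pressure, by 1.36 and 1.37, while Vwf was not called there (adjusted p = 0.449). At E14.5, Vwf and Ptprb were highest in replicate 2, the library with the highest heart muscle sum, and Clec14a was highest in replicate 3. Against E12.5, 18 of the 25 were lower and 1 was higher at high pressure, and 9 were lower and 1 higher at low pressure.

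Among 16 endothelial transcription factor genes tested (17 listed), 0 rose and 4 fell at high pressure (median -0.51). They were Fli1, an ETS family gene like Erg (-1.34, adjusted p = 0.00156), Ets1 (-0.98, adjusted p = 0.000831), Hhex (-1.12, adjusted p = 0.0157) and Bcl6b (-1.68, adjusted p = 0.0174). Fli1 had 16, 11.7 and 11.5 CPM at high pressure, against 36.5, 28.9 and 34.4 CPM at low pressure, with no overlap. At E14.5 with the block 4 rose and 0 fell, namely Fli1 (0.39), Bcl6b (0.59), Hhex (0.62) and Sox7 (0.47). Sox17, an arterial factor gene, gave -1.63 at high pressure and was not called (SE 0.54, adjusted p = 0.0561). Etv2, an early inducer of endothelial fate, had 0 counts in all groups but E12.5.

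Of 6 other receptor genes, 0 rose and 2 fell at high pressure. Aplnr, the apelin receptor gene, had 9.61, 6.71 and 5.13 CPM at high pressure, against 49.6, 26.4 and 11.8 CPM at low pressure (-2.03, SE 0.47, adjusted p = 0.0155), and 168, 255 and 242 CPM at E12.5. Flt4, the lymphatic and sprouting VEGF receptor gene, fell by 0.97 (adjusted p = 0.012). With the block, Aplnr (0.60) and Nrp1, a VEGF co-receptor gene (0.62), rose at E14.5, and 0 of the 6 fell. Of 10 ligand genes tested (11 listed), 0 rose and 2 fell at high pressure, Vegfa and the chemokine gene Cxcl12 (-1.52, adjusted p = 0.00031), and 3 rose and 0 fell at E14.5 with the block, among them Adm (1.62) and Apln (0.89), the genes of adrenomedullin and apelin, and Angpt1 (0.79, adjusted p = 0.0498).

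Arterial genes were lower in 3 of 9 cases tested at high pressure (10 listed, 0 higher, median -0.92), and the 3 were the Notch target genes Hey1 (-1.18) and Hey2 (-3.26) and the Notch ligand gene Jag1 (-0.92). The value of Hey2 rests on few reads, 3, 0 and 10 counts at high pressure against 36, 35 and 34 at low pressure. It was imprecise and near the threshold (SE 1.03, adjusted p = 0.0477). At E14.5 with the block 1 of 10 rose, Bmx (1.85), and 0 fell. Bmx had few reads too, with 37, 79 and 41 counts at E14.5 against 13, 18 and 15 at E12.5. Its highest E14.5 library was replicate 2, which also had the highest heart muscle sum. In the venous and lymphatic list of 6, Reln fell by 2.31 at high pressure (adjusted p = 0.00239) and Pdpn rose by 1.0 (adjusted p = 0.00265). Pdpn also rose at E14.5 with the block (0.85), and the lung epithelium expresses Pdpn as well as lymphatic vessels do. The lymphatic genes Prox1 and Lyve1 gave 1.03 and 1.45 at E14.5 and were not called (adjusted p = 0.105 and 0.167). Without the block, none of these stage changes was called.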

How the data were processed

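RNA of pooled whole lungs was sequenced. Per the submitters' processing notes, the authors used cutadapt 1.6, Bowtie 1.1.1, TopHat, HTSeq and DESeq2 on mm10. Neither the annotation nor the strandedness is given in the sources used here. Of 8 deposited tables, the 2 of raw read counts per gene were used as deposited. Here each was fitted with edgeR 4.0.16 (R 4.3.3): TMM scaling, filterByExpr by group, a robust quasi-likelihood fit, Benjamini-Hochberg adjustment and a threshold of 0.05. A joint fit of the 15 libraries gave the comparisons of cultured with fresh lungs and the CPM values. The SE of a log2 fold change is its size over the square root of F. DESeq2 1.42.0, other scalings, filters and left-out libraries were alternatives. The scripts were tested on simulated data. All 9 same-numbered pairs of fresh libraries correlated, at 0.397 to 0.838, in their deviations from group means, so the blocked fit stands beside those results. Pairs with different numbers lay between -0.736 and 0.625, and 5 of the 9 libraries correlated best with their own number. These values do not show 3 matched sets of libraries. What a number marks is not in the labels. Beside the 10 markers, 13 gene lists were counted, and up to 3 genes per list with the smallest p, high against low pressure and E14.5 against E12.5, and the 6 genes most like the markers (log2 CPM, prior count 2) were named. Markers and lists were chosen with earlier results of these data known. For the 10 markers counting error alone is small at these depths, and the spread between 3 pools sets the precision.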

Additional observations from a re-analysis of the deposited data

How the results depend on the processing

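All 10 markers were called lower at high pressure against E12.5 and against E14.5 in each of the 20 alternatives run for each comparison. In the planned test 21.3% of all genes were lower against E12.5 and 21.3% against E14.5. For high against low pressure, 3 markers were called in the planned test (with 12.2% of all genes lower), 7 with DESeq2 (12.8%), 8 with the replicate block (9.51%), 7 with both libraries numbered 1 left out (3.04%, an alternative added after seeing the data) and 1 to 9 when single libraries were left out (5.40% to 18.9%), all lower at high pressure. Over all genes, deviations of same-numbered cultured libraries correlated at -0.012 to 0.046, although replicate 1 was the highest library for 10 of 10 markers at both pressures. For E14.5 against E12.5, 0 markers were called without the block, 7 with the replicate block (7.33% of all genes higher), 8 with a batch term for replicate 1 (7.42%), 8 with the replicate block and offsets for GC content and length (8.87%), 5 without the libraries numbered 1 (5.32%), and 2 with DESeq2 (1.87%). For E14.5 against E13.5 these numbers were 0, 7 (4.15%), 7 (570 of 14242 genes higher), 7 (5.05%), 1 (0.338%) and 2 (1.25%). With the block the comparison of E14.5 with E13.5 gave 1 to 7 when single libraries were left out, with 0.421% to 6.24% of all genes higher. The block changed no call for E13.5 against E12.5 or for the second day minus the first, with 0 markers in each. For low pressure, single left-out libraries gave 2 to 6 markers against E12.5 (4 in the planned test), with 10.3% to 17.1% of all genes lower. Against E14.5 they gave 5 to 9 (8 in the planned test), with 11.6% to 18.3% of all genes lower. At E13.5 against E12.5, where 5 fold changes were positive and 5 negative, the alternatives gave 1 to 9 positive, and for the second day minus the first 9 or 10. In the other comparisons 6 uncalled values of named genes changed sign, and the cause was not tested. With single libraries left out, Cldn5 ranged from -0.21 to 0.81 at E14.5 against E13.5 and from -0.13 to 0.74 against E12.5, Krt19 from -0.15 to 1.26 and Sftpc from -0.12 to 2.73 at E14.5 against E12.5, Itga2b from -0.29 to 0.14 at high against low pressure, and Erg from -0.33 to 0.03 at low pressure against E12.5, where it was 0.01 without the fresh libraries numbered 1. Leaving out a library left an arm with 2, and the spread was pooled over the groups of the fit.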
